A study of Mus musculus with 11 samples.

Results

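Gene by gene, the livers of mice given c-MET/β-catenin plasmids 2 weeks earlier were compared with vector control livers. The members were chosen by column name, 4 livers at 2 weeks and 3 controls, which is 7 of the 11 livers of the series; of 23393 gene names used, 11024 had a mean level of at least 0.5 RPKM over these 7 and were tested. RPKM is the number of reads on a gene, scaled by gene length and library size. All mice were males with wild-type glutamine synthetase (GS WT), 7 weeks old at injection, and of a mixed genetic background. The 2-week mice received plasmids for human c-Met and ΔN90-β-catenin, a form without the start of the protein, together with the SB10 transposase, through the tail vein, and the oncogenes are driven by the EF1α promoter, which is active in most cell types. The control mice are called vehicle in the design, vector control in the paper and 0 weeks in the labels. Whether, when and with what the controls were injected is not clear from these names. The effects of the injection itself, plasmid DNA, transposase, age, time after injection and oncogenes therefore cannot be told apart. Below, injected livers means those of the 2-week group. Hydrodynamic injection reaches a small portion of hepatocytes, and the libraries hold whole liver tissue although the labels name hepatocytes.

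In the normal liver, hepatocytes differ by their place between the portal and the central vein. Around the central vein, Wnt signals stabilise β-catenin, which with TCF factors switches on genes such as glutamine synthetase, while the urea cycle is strongest near the portal vein. MET is the receptor of hepatocyte growth factor, and interferons switch on a shared set of defence and antigen presentation genes.

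The hepatocyte genes fit the labelled tissue: albumin (Alb) was 51000.26, 44127 and 50842 RPKM in control livers 1 to 3 and 45022, 47589, 46574 and 37304 RPKM in 2-week livers 1 to 4. It was the most abundant of 9 hepatocyte markers, whose summed level was 76960.0, 68280.0 and 72530.0 RPKM in control livers 1 to 3 and 72470.0, 73430.0, 67250.0 and 58350.0 RPKM in 2-week livers 1 to 4. The median of the 9 log2 changes was −0.05 (−0.15 without livers 1 and 2, −0.09 without livers 3 and 4), none was higher and 1 lower in every injected liver (9.37% and 2.13% of all 11024 genes), and 0 were called in limma (adjusted p under 0.05), beside 0.29% of all genes, of which 1312 had an unadjusted p under 0.05.

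The 2-week livers were not alike. The median log2(RPKM + 0.5) over the genes tested was 2.65, 2.67 and 2.62 in control livers 1 to 3, and 2.69, 2.68, 2.81 and 2.88 in 2-week livers 1 to 4. The 10 most abundant genes held 29.1%, 28.1% and 28.2% of the RPKM of the control livers, 29.1% and 28.6% of 2-week livers 1 and 2, and 25.3% and 25.1% of livers 3 and 4. Livers 3 and 4 thus stand apart from livers 1 and 2, whose mouse numbers also form another series. Controls and injected mice come from separate number series, and the effect of series and that of the plasmids cannot be told apart. The counts of calls and the list medians are therefore also given without each pair. The level needed for the test is a mean over both groups, so genes low in the controls can reach it through the injected livers. A list holds at most 2 such members unless noted.

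**Figure D1:**
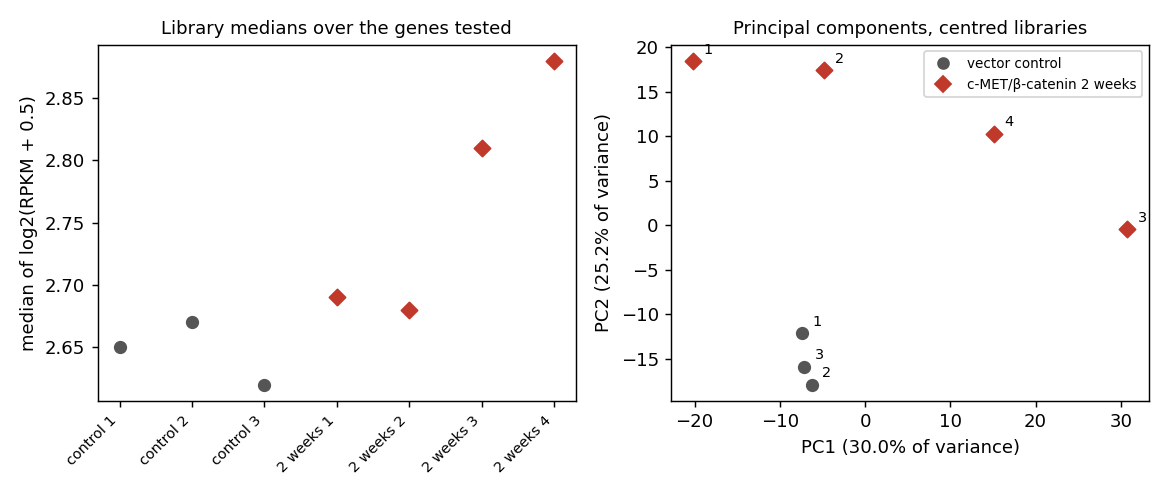
Left, median log2(RPKM + 0.5) over the 11024 genes tested in each of the 7 livers. Right, the first 2 principal components of the centred log2 values of these livers, with the replicate number beside each point. Grey circles are vector control livers and red diamonds livers at 2 weeks.

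Few genes passed the test at 2 weeks, and nearly all of those were higher. They include genes of hepatocytes around the central vein (Glul, Rhbg, Slc13a3, Slc1a4, Lhpp, Gstm3), the Wnt target Nkd1, interferon response genes (Cxcl9, Cxcl10, Ifi27l2b, Igtp), MHC class II genes (H2-Eb1, Cd74, H2-DMb1) and the fetal gene Afp. Of the 11024 genes, 31 rose (0.281%) and 1 fell, so that 32 were called in all (0.29%; limma, adjusted p under 0.05). After each library was centred on its median, which moves every log2 change by −0.12, 25 rose (0.227%) and 10 fell (0.0907%). The calls of the fits as deposited and after centring share 26 genes. Cyp2b9, Tnfaip2, Cd74, H2-DMb1, Igtp and Cdh1 were called as deposited and not after centring, and 9 genes, each lower, after centring alone.

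Across all genes tested the median log2 change was 0.08, and −0.04 after centring; 67.9% of genes were above 0 as deposited and 42.1% after centring. In 1033 genes (9.37%) all 4 livers at 2 weeks were above all 3 controls, and in 235 (2.13%) all 4 were below. Each of the 32 called genes was among these. Without 2-week livers 1 and 2 the median change was 0.15 and 214 genes were called (205 higher), 29 of the 32 among them; after centring it was 91, with 45 higher and 46 lower. Without livers 3 and 4 the median was 0.03 and 19 genes were called (16 higher), 14 of the 32 among them, and after centring 28 (18 higher). Leaving out 1 liver gave 11, 7 and 10 called genes without control livers 1, 2 and 3, and 58, 13, 38 and 21 without 2-week livers 1 to 4. A1bg, Cxcl9, Ifi27l2b and Gstm6 were called in 24 of 24 fits as deposited, and Mir677 in 23 of 23, while 26 of the 32 genes lost the call in at least 1 fit.

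**Figure D2:**
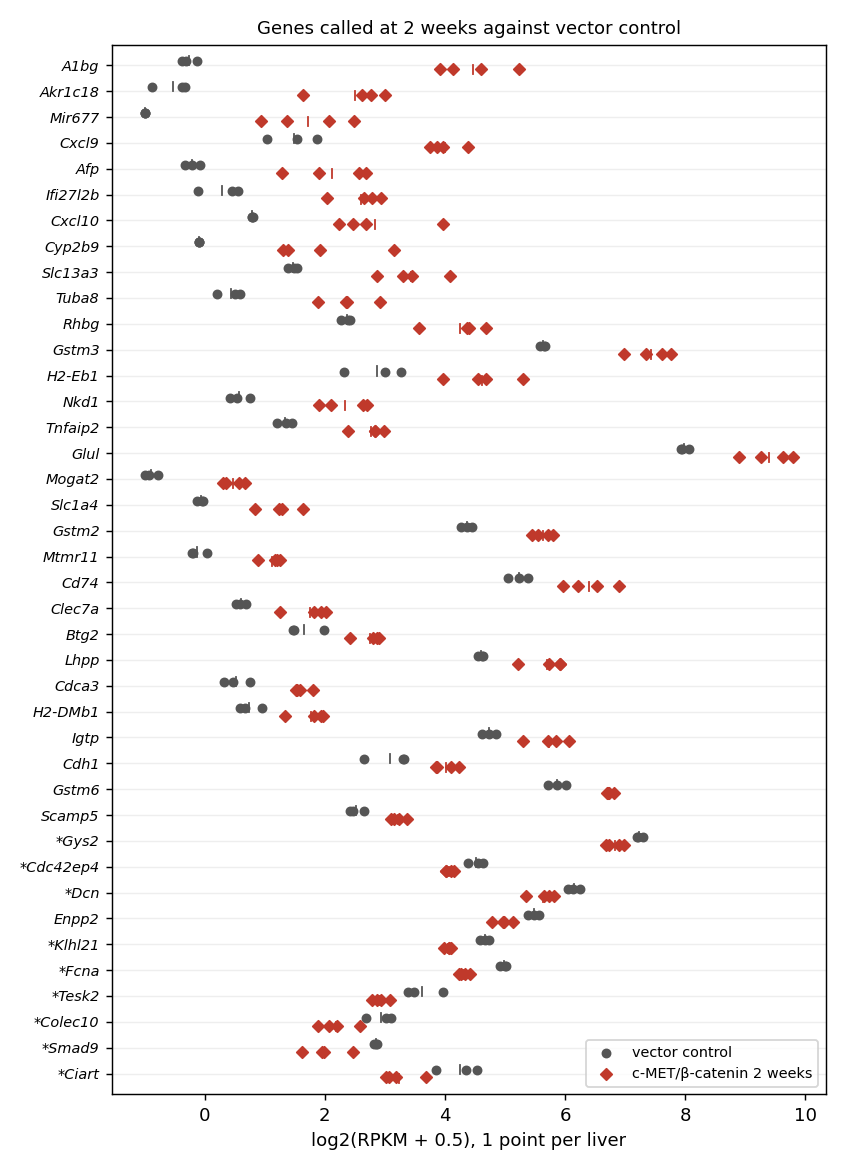
Level of 40 genes called as deposited or after centring, as log2(RPKM + 0.5), with 1 point per liver and short lines at the group means. Grey circles are vector control livers, red diamonds livers at 2 weeks. An asterisk marks genes called after centring alone.

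Genes of the central vein zone held 6 of the calls. Glul, glutamine synthetase, which joins ammonia to glutamate, was 246, 268 and 243 RPKM in control livers 1 to 3 and 476, 613, 889 and 788 RPKM in 2-week livers 1 to 4. The lowest injected liver was well above the highest control, and livers 3 and 4 were the highest (Glul log2 change 1.41, standard error 0.25, limma, adjusted p = 0.0337, and 0.0371 after centring, where the change was 1.29). Glul was called in 13 of 24 fits as deposited. Rhbg, which carries ammonium across membranes, was 4.84, 4.34 and 4.75 RPKM in control livers 1 to 3 and 11.3, 20.2, 25.1 and 20.7 RPKM in 2-week livers 1 to 4. All 4 injected livers were above the controls, liver 1 the least (Rhbg log2 change 1.89, standard error 0.24, limma, adjusted p = 0.00531, and 0.00606 after centring, where the change was 1.77). Of the 50-base words of Rhbg, 60.4% also occur in Gm38392, and 12.6% of those of Glul occur in other genes, so reads cannot always be assigned to 1 of them.

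Slc13a3, a sodium-coupled carrier of dicarboxylates, was 2.41, 2.31 and 2.12 RPKM in control livers 1 to 3 and 6.83, 10.5, 16.5 and 9.39 RPKM in 2-week livers 1 to 4. The groups did not overlap, and liver 3 was the highest (Slc13a3 log2 change 1.96, standard error 0.26, limma, adjusted p = 0.00643, and 0.0085 after centring, where the change was 1.83). The neutral amino acid carrier Slc1a4 was 0.471, 0.415 and 0.477 RPKM in control livers 1 to 3 and 1.28, 1.85, 2.62 and 1.95 RPKM in 2-week livers 1 to 4. Every injected liver was above every control (Slc1a4 log2 change 1.32, standard error 0.21, limma, adjusted p = 0.0205, and 0.0362 after centring, where the change was 1.20). Slc1a4 had a control mean under 0.5 RPKM and reached the test through the injected livers. Lhpp, a phosphatase that acts on phosphohistidine, was 24.3, 24.1 and 22.9 RPKM in control livers 1 to 3 and 36.8, 59.7, 60.0 and 52.8 RPKM in 2-week livers 1 to 4. Its control values were close together, and liver 1 was the lowest of the injected livers (Lhpp log2 change 1.10, standard error 0.18, limma, adjusted p = 0.0205, and 0.0321 after centring, where the change was 0.97).

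Gstm2, Gstm3 and Gstm6, glutathione S-transferases of the mu class, which join glutathione to reactive compounds, rose. Gstm3, whose 50-base words are 28.8% shared, was 50.3, 49.4 and 47.4 RPKM in control livers 1 to 3 and 163, 126, 196 and 216 RPKM in 2-week livers 1 to 4. The lowest injected liver, liver 2, was above each control (Gstm3 log2 change 1.80, standard error 0.27, limma, adjusted p = 0.0192, and 0.0208 after centring, where the change was 1.68). Gstm2 was 18.7, 21.4 and 20.1 RPKM in control livers 1 to 3 and 43.0, 46.2, 52.2 and 55.1 RPKM in 2-week livers 1 to 4. The groups were apart and the livers at 2 weeks close together (Gstm2 log2 change 1.27, standard error 0.16, limma, adjusted p = 0.00531, and 0.00582 after centring, where the change was 1.14). Gstm6 was 63.9, 57.6 and 52.2 RPKM in control livers 1 to 3 and 104, 105, 112 and 103 RPKM in 2-week livers 1 to 4. Its 4 injected livers were nearly equal (Gstm6 log2 change 0.87, standard error 0.11, limma, adjusted p = 0.00449, and 0.0144 after centring, where the change was 0.75). Gstm1, the most abundant of the 4, was 981, 839.9 and 725 RPKM in control livers 1 to 3 and 1451, 1072, 1113 and 1149 RPKM in 2-week livers 1 to 4; all injected livers were above the controls, without a call (Gstm1 log2 change 0.50, limma, adjusted p = 0.288).

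Of the 23 pericentral genes tested, 12 were higher in every injected liver and 1 lower, 6 were called, and the median log2 change was 0.48. Over all genes these are 9.37%, 2.13%, 0.29% and a median of 0.08, and these values apply to each list that follows. Each list was chosen with earlier results of these data known, so its counts and median are a description and not a test. The median was 0.66 without livers 1 and 2 and 0.42 without livers 3 and 4. Centring moves the median of each list by −0.12 as well. Oat, which turns ornithine into glutamate semialdehyde, was 149, 164 and 168 RPKM in control livers 1 to 3 and 200.02, 467, 589 and 447 RPKM in 2-week livers 1 to 4; liver 1 was nearest to the controls and the test was not passed (Oat log2 change 1.31, limma, adjusted p = 0.0861). The glutamate carrier Slc1a2 was 14.2, 11.5 and 10.9 RPKM in control livers 1 to 3 and 22.1, 33.0, 63.2 and 41.4 RPKM in 2-week livers 1 to 4, and it was not called (Slc1a2 log2 change 1.58, limma, adjusted p = 0.0709). Cyp2e1, a cytochrome P450 of the same zone and the most abundant of the list, was 5480.3, 4729 and 4263 RPKM in control livers 1 to 3 and 4166, 3758, 3725 and 4299 RPKM in 2-week livers 1 to 4. Its groups overlapped (Cyp2e1 log2 change -0.27, limma, adjusted p = 0.355). Slco1b2, a bile acid and drug carrier, was the member lower in every injected liver (Slco1b2 log2 change -0.32, limma, adjusted p = 0.246).

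Around the portal vein, 1 of 23 genes tested was higher in every injected liver and none lower, with a median of 0.13 (0.25 without livers 1 and 2, −0.04 without livers 3 and 4). That gene was Cdh1, E-cadherin, which joins neighbouring epithelial cells, at 9.34, 5.79 and 9.51 RPKM in control livers 1 to 3 and 16.7, 13.9, 14.2 and 18.4 RPKM in 2-week livers 1 to 4. The injected livers were all above the controls (Cdh1 log2 change 0.93, standard error 0.17, limma, adjusted p = 0.0398, and 0.0737 after centring, where the change was 0.80). Cdh1 was called in 8 of 24 fits as deposited. Of the urea cycle, Cps1, which makes carbamoyl phosphate, was 504, 495 and 549 RPKM in control livers 1 to 3 and 413, 566, 764 and 613 RPKM in 2-week livers 1 to 4. Liver 1 was below the controls and liver 3 the highest (Cps1 log2 change 0.16, limma, adjusted p = 0.783). Otc, which forms citrulline, was 285, 272 and 324 RPKM in control livers 1 to 3 and 289, 261, 261 and 270.2 RPKM in 2-week livers 1 to 4, and the groups overlapped (Otc log2 change -0.12, limma, adjusted p = 0.661). Asl, which splits argininosuccinate, was 349, 389 and 362 RPKM in control livers 1 to 3 and 309, 354, 560.3 and 415 RPKM in 2-week livers 1 to 4, with liver 3 far above the rest (Asl log2 change 0.12, limma, adjusted p = 0.822). Of 21 genes of the urea cycle and ammonia handling, Glul and Rhbg were called, and the median was 0.12 (0.21 without livers 1 and 2, −0.06 without livers 3 and 4). Among 21 pyrimidine genes, median 0.13 (0.17 without livers 1 and 2, 0.03 without livers 3 and 4), 0 were called in limma (1312 of all genes had an unadjusted p under 0.05); Cad, which begins pyrimidine synthesis, was 1.004, 1.79 and 1.15 RPKM in control livers 1 to 3 and 1.29, 2.05, 2.26 and 2.45 RPKM in 2-week livers 1 to 4. The lowest injected liver of Cad lay among the controls (Cad log2 change 0.47, limma, adjusted p = 0.337).

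Nkd1, which binds Dishevelled and dampens Wnt signals, was the called member of the Wnt target list, at 0.952, 0.846 and 1.20 RPKM in control livers 1 to 3 and 3.25, 3.77, 5.99 and 5.73 RPKM in 2-week livers 1 to 4. Livers 3 and 4 were the highest and no injected liver overlapped the controls (Nkd1 log2 change 1.76, standard error 0.27, limma, adjusted p = 0.0205, and 0.0214 after centring, where the change was 1.64). Axin2, a scaffold of β-catenin breakdown that Wnt signals switch on, was 1.56, 1.28 and 1.24 RPKM in control livers 1 to 3 and 2.27, 2.92, 2.59 and 4.91 RPKM in 2-week livers 1 to 4. Each injected liver was above the controls and liver 4 stood highest, without a call (Axin2 log2 change 0.94, limma, adjusted p = 0.115). Lgr5, a receptor of R-spondins, was 0.460, 0.541 and 0.746 RPKM in control livers 1 to 3 and 0.901, 1.21, 1.63 and 1.76 RPKM in 2-week livers 1 to 4. The groups did not overlap (Lgr5 log2 change 0.78, limma, adjusted p = 0.153). The transcription factor gene Tcf7 was 1.55, 1.66 and 1.05 RPKM in control livers 1 to 3 and 1.59, 2.20, 3.15 and 3.56 RPKM in 2-week livers 1 to 4. Liver 1 lay within the controls (Tcf7 log2 change 0.67, limma, adjusted p = 0.255). Of 15 targets tested, 7 were higher in every injected liver and none lower, and the median was 0.67 (0.81 without livers 1 and 2, 0.52 without livers 3 and 4). The groups overlapped in the 2 most abundant members, Notum (log2 change 0.34, limma, adjusted p = 0.523) and Ccnd1 (log2 change -0.08, limma, adjusted p = 0.901). As deposited 12 of the 15 were above 0, while Ccnd1, Dkk3 and Zbtb16 were below 0 (Zbtb16 log2 change -1.20, limma, adjusted p = 0.468).

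The genes of the pathway itself had a median of 0.10, and −0.02 after centring. It was 0.29 without livers 1 and 2 and −0.02 without livers 3 and 4, over 29 tested. Of these, 3 were higher in every injected liver, a share near the 9.37% of all genes, and 0 were called in limma, beside 0.29% of all genes (1312 had an unadjusted p under 0.05). Ctnnb1, β-catenin, was 71.6, 71.5 and 77.0 RPKM in control livers 1 to 3 and 62.8, 81.2, 83.0 and 80.2 RPKM in 2-week livers 1 to 4, and its groups overlapped (change 0.06, and -0.06 after centring; limma, adjusted p = 0.865 and 0.855). The mouse receptor gene Met was 13.3, 11.4 and 15.0 RPKM in control livers 1 to 3 and 12.8, 12.9, 13.2 and 15.8 RPKM in 2-week livers 1 to 4. Its groups overlapped as well (change 0.05, and -0.07 after centring; limma, adjusted p = 0.907 and 0.878). Whether reads of the injected sequences count toward Met or Ctnnb1 was not tested. Of 22 MET signalling genes, median 0.14 (0.29 without livers 1 and 2, −0.03 without livers 3 and 4), 4 were higher and 1 lower in every injected liver; the lower one was Hgf, the growth factor that binds MET (Hgf log2 change -0.62, limma, adjusted p = 0.109).

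Interferon response genes held 4 calls. Cxcl9, a chemokine that draws T cells through CXCR3, was 3.17, 2.40 and 1.55 RPKM in control livers 1 to 3 and 15.2, 20.5, 14.1 and 13.0 RPKM in 2-week livers 1 to 4. The 4 injected livers were similar and far above the controls (Cxcl9 log2 change 2.51, standard error 0.29, limma, adjusted p = 0.00309, and 0.00616 after centring, where the change was 2.39). Cxcl10, a ligand of the same receptor, was 1.23, 1.25 and 1.22 RPKM in control livers 1 to 3 and 5.04, 5.95, 15.2 and 4.18 RPKM in 2-week livers 1 to 4. Liver 3 stood far above the other injected livers (Cxcl10 log2 change 2.05, standard error 0.35, limma, adjusted p = 0.0307, and 0.0464 after centring, where the change was 1.92). Ifi27l2b, an interferon-induced gene, was 0.867, 0.420 and 0.964 RPKM in control livers 1 to 3 and 3.62, 6.36, 7.16 and 5.80 RPKM in 2-week livers 1 to 4. Its groups did not overlap (Ifi27l2b log2 change 2.31, standard error 0.26, limma, adjusted p = 0.00309, and 0.00463 after centring, where the change was 2.19). Igtp, a GTPase induced by interferon gamma, was 28.2, 24.01 and 26.0 RPKM in control livers 1 to 3 and 57.4, 66.7, 38.8 and 51.9 RPKM in 2-week livers 1 to 4. Liver 3 was the lowest of the injected livers and still above the controls (Igtp log2 change 1.005, standard error 0.18, limma, adjusted p = 0.0375, and 0.115 after centring, where the change was 0.88).

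Of 37 interferon genes tested, 19 were higher in every injected liver and none lower, beside 9.37% and 2.13% of all genes. The groups overlapped in the other 18, among them Ifit1, Ifit2, Ifit3, Isg15 and Rsad2 (log2 changes 0.11, 0.10, 0.12, 0.35 and -0.01). As deposited 35 of the 37 were above 0. The median log2 change was 0.43, and 0.41 without livers 1 and 2 and 0.56 without livers 3 and 4. Bst2, a membrane protein that tethers viruses and the most abundant of the list, was 129.6, 149 and 148 RPKM in control livers 1 to 3 and 213, 205, 159 and 162 RPKM in 2-week livers 1 to 4; livers 1 and 2 were the highest (Bst2 log2 change 0.37, limma, adjusted p = 0.303). Iigp1, another induced GTPase, was 123, 92.6 and 135 RPKM in control livers 1 to 3 and 136, 117, 108 and 129.8 RPKM in 2-week livers 1 to 4, and the groups overlapped (change 0.08, and -0.04 after centring; limma, adjusted p = 0.884 and 0.958).

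MHC class II genes, which present peptides to CD4 T cells, were singled out after their values were seen. H2-Eb1, a β chain, was 9.12, 4.49 and 7.51 RPKM in control livers 1 to 3 and 23.0, 38.7, 25.1 and 15.1 RPKM in 2-week livers 1 to 4. The injected livers were above all controls, with liver 2 the highest (H2-Eb1 log2 change 1.76, standard error 0.27, limma, adjusted p = 0.0204, and 0.0486 after centring, where the change was 1.64). Cd74, the invariant chain that guides class II molecules, was 37.3, 41.5 and 32.6 RPKM in control livers 1 to 3 and 74.2, 119, 91.6 and 61.9 RPKM in 2-week livers 1 to 4. Liver 2 was again the highest (Cd74 log2 change 1.18, standard error 0.18, limma, adjusted p = 0.0192, and 0.0616 after centring, where the change was 1.05). H2-DMb1, part of the molecule that loads the peptides, was 1.09, 1.43 and 1.003 RPKM in control livers 1 to 3 and 3.04, 3.31, 3.40 and 2.02 RPKM in 2-week livers 1 to 4. Its groups did not overlap, and 22.7% of its words are shared with H2-DMb2 (H2-DMb1 log2 change 1.03, standard error 0.16, limma, adjusted p = 0.0205, and 0.071 after centring, where the change was 0.91). The chains H2-Ab1, H2-Aa and H2-DMa were also higher in every injected liver without a call (H2-Ab1 log2 change 1.23, limma, adjusted p = 0.0566). H2-Aa was 19.1, 19.2 and 15.2 RPKM in control livers 1 to 3 and 36.5, 74.9, 52.2 and 26.0 RPKM in 2-week livers 1 to 4 (log2 change 1.29, limma, adjusted p = 0.0759), with liver 2 the highest, and H2-DMa was 1.23, 1.57 and 1.52 RPKM in control livers 1 to 3 and 2.63, 3.65, 2.58 and 2.22 RPKM in 2-week livers 1 to 4 (H2-DMa log2 change 0.74, limma, adjusted p = 0.084).

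Markers of immune cells were summed by cell type. In bulk tissue, fewer or more cells of a type and less or more RNA per cell cannot be told apart. Of 16 T and NK cell markers, 5 were tested, of which Cd3g and Cd4 had control means under 0.5 RPKM and reached the test through the injected livers; Cd4 and Ccl5 were higher in every injected liver, and the summed level of the list was 2.96, 4.55 and 3.32 RPKM in control livers 1 to 3 and 9.15, 11.8, 5.55 and 4.61 RPKM in 2-week livers 1 to 4. Livers 1 and 2 had the highest sums. Ccl5, a chemokine of T and NK cells and the most abundant member, was 0.510, 1.25 and 1.21 RPKM in control livers 1 to 3 and 3.30, 5.78, 1.81 and 1.43 RPKM in 2-week livers 1 to 4 (Ccl5 log2 change 1.15, limma, adjusted p = 0.244). The T cell receptor gene Cd3e was 0.126, 0.0710 and 0.122 RPKM in control livers 1 to 3 and 0.0390, 0.309, 0.134 and 0.151 RPKM in 2-week livers 1 to 4, and no T and NK marker was at 0 in all 7 livers. Of 13 macrophage and Kupffer cell markers tested, 2 were lower in every injected liver and none higher, with a sum of 229, 255 and 240.3 RPKM in control livers 1 to 3 and 251, 339, 314 and 229 RPKM in 2-week livers 1 to 4. C1qa, a complement gene and the most abundant of them, was 31.2, 45.8 and 37.6 RPKM in control livers 1 to 3 and 45.3, 54.2, 44.3 and 32.6 RPKM in 2-week livers 1 to 4 (C1qa log2 change 0.20, limma, adjusted p = 0.693). Clec7a, which binds fungal β-glucans on myeloid cells, was 0.932, 1.12 and 1.003 RPKM in control livers 1 to 3 and 1.89, 3.55, 3.33 and 3.02 RPKM in 2-week livers 1 to 4, with liver 1 the lowest of the injected livers (Clec7a log2 change 1.16, standard error 0.20, limma, adjusted p = 0.0318, and 0.0464 after centring, where the change was 1.03). The part of these cells in the interferon and class II results was not tested.

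Among fetal liver and tumour genes Afp was called. Afp, the fetal counterpart of albumin, was 0.368, 0.293 and 0.449 RPKM in control livers 1 to 3 and 1.95, 3.24, 5.91 and 5.45 RPKM in 2-week livers 1 to 4. Livers 3 and 4 were the highest and each injected liver was above the controls (Afp log2 change 2.32, standard error 0.35, limma, adjusted p = 0.0194, and 0.0209 after centring, where the change was 2.20). Afp had a control mean of 0.37 RPKM and reached the test through the injected livers. Of 15 members tested, 4 were higher in every injected liver, and the median was 0.27 (0.40 without livers 1 and 2, 0.05 without livers 3 and 4). Of the imprinted Dlk1-Dio3 genes 2 of 7 were tested, both noncoding RNAs. Rian was 0.391, 0.0710 and 0.115 RPKM in control livers 1 to 3 and 0.869, 1.89, 6.53 and 5.48 RPKM in 2-week livers 1 to 4. Livers 3 and 4 were far above livers 1 and 2 (Rian log2 change 2.33, limma, adjusted p = 0.0709). Meg3 was 0.161, 0.0390 and 0.0320 RPKM in control livers 1 to 3 and 0.285, 0.750, 3.99 and 3.70 RPKM in 2-week livers 1 to 4, and livers 3 and 4 were again the highest (Meg3 log2 change 1.85, limma, adjusted p = 0.165). Both had control means under 0.5 RPKM and reached the test through the injected livers, so nothing is read from the list's median.

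Of 30 proliferation genes 18 were tested. Of these, Ccna2, Mcm5, Mcm6, Cdc20 and Gins2 had control means under 0.5 RPKM and reached the test through the injected livers, which bears on the list's values. The 18 log2 changes were above 0 as deposited, and Pcna was below 0 after centring. Their median was 0.54 (0.42 after centring, 0.69 without livers 1 and 2, 0.38 without livers 3 and 4). In 5 of them every injected liver was higher, and 0 were called in limma (1312 of all genes had an unadjusted p under 0.05). Mki67, a marker of dividing cells, was below the level needed for the test, at 0.211, 0.101 and 0.418 RPKM in control livers 1 to 3 and 0.438, 0.583, 0.729 and 0.946 RPKM in 2-week livers 1 to 4. Every injected liver was above every control. Pcna, the clamp of DNA replication, was 5.73, 7.24 and 6.13 RPKM in control livers 1 to 3 and 5.34, 7.57, 6.93 and 6.83 RPKM in 2-week livers 1 to 4, and its groups overlapped (change 0.06, and -0.06 after centring; limma, adjusted p = 0.928 and 0.93). Cdca3, which helps cells enter mitosis and is not in the list, was 0.880, 0.754 and 1.18 RPKM in control livers 1 to 3 and 2.36, 2.51, 2.39 and 2.98 RPKM in 2-week livers 1 to 4. The groups were apart (Cdca3 log2 change 1.10, standard error 0.17, limma, adjusted p = 0.0192, and 0.0246 after centring, where the change was 0.97). Btg2, which slows the cell cycle, was 2.31, 2.28 and 3.48 RPKM in control livers 1 to 3 and 6.46, 7.01, 6.83 and 4.87 RPKM in 2-week livers 1 to 4. It too was higher in every injected liver (Btg2 log2 change 1.10, standard error 0.16, limma, adjusted p = 0.0192, and 0.0486 after centring, where the change was 0.98).

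A1bg, a plasma glycoprotein with higher levels in female mouse liver, had the largest log2 change of the 32 genes, at 0.272, 0.308 and 0.418 RPKM in control livers 1 to 3 and 17.1, 23.7, 37.2 and 14.6 RPKM in 2-week livers 1 to 4. The lowest injected liver was far above the highest control (A1bg log2 change 4.74, standard error 0.30, limma, adjusted p = 1.58e-05, and 3.39e-05 after centring, where the change was 4.62). Cyp2b9, a cytochrome P450 with the same bias, was 0.433, 0.434 and 0.437 RPKM in control livers 1 to 3 and 2.11, 3.29, 8.41 and 1.96 RPKM in 2-week livers 1 to 4. The controls were nearly equal and liver 3 stood highest (Cyp2b9 log2 change 2.04, standard error 0.36, limma, adjusted p = 0.0378, and 0.0629 after centring, where the change was 1.92). Cyp2c40, also female-biased, was 25.6, 46.1 and 61.4 RPKM in control livers 1 to 3 and 9.67, 15.0, 13.5 and 5.26 RPKM in 2-week livers 1 to 4. Here the injected livers were below the controls, without a call, and 60.3% of its words are shared with other genes (Cyp2c40 log2 change -1.99, limma, adjusted p = 0.176). Of 15 female-biased genes tested, 7 were higher and 3 lower in every injected liver, with a median of 0.58 (0.86 without livers 1 and 2, 0.34 without livers 3 and 4); 3 of the 15, A1bg, Cyp2b9 and Sult3a1, had control means under 0.5 RPKM. Of 17 male-biased genes 1 was higher and 1 lower, with a median of 0.18 (−0.03 without livers 1 and 2, 0.56 without livers 3 and 4). Mup3, a major urinary protein and the most abundant of these, was 10076, 10569 and 11829.6 RPKM in control livers 1 to 3 and 10063, 8621, 7637 and 9613 RPKM in 2-week livers 1 to 4, and it was the lower one (Mup3 log2 change -0.27, limma, adjusted p = 0.44).

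Further genes, which belong to no list, also rose. Akr1c18, which inactivates progesterone, was 0.270, 0.0430 and 0.3 RPKM in control livers 1 to 3 and 2.61, 7.47, 6.35 and 5.64 RPKM in 2-week livers 1 to 4. Control liver 2 was under the level of 3 inferred reads on 2000 bases (0.0554 to 0.0878 RPKM over the 7 livers), and each injected liver was above the controls (Akr1c18 log2 change 3.03, standard error 0.48, limma, adjusted p = 0.0205, and 0.0308 after centring, where the change was 2.91). The α-tubulin gene Tuba8 was 0.914, 0.997 and 0.654 RPKM in control livers 1 to 3 and 3.20, 4.59, 7.04 and 4.69 RPKM in 2-week livers 1 to 4. Its groups did not overlap (Tuba8 log2 change 1.95, standard error 0.32, limma, adjusted p = 0.0205, and 0.0299 after centring, where the change was 1.83). Mogat2, which makes diacylglycerol, was 0.0250, 0.0860 and 0 RPKM in control livers 1 to 3 and 0.990, 0.772, 0.731 and 1.10 RPKM in 2-week livers 1 to 4, and Tnfaip2, induced by tumour necrosis factor, was 1.80, 2.06 and 2.23 RPKM in control livers 1 to 3 and 7.42, 6.67, 6.63 and 4.73 RPKM in 2-week livers 1 to 4. Each was higher in every injected liver. Mogat2 had a control mean of 0.037 RPKM and reached the test through the injected livers. It was called in 9 of 17 fits as deposited. Mogat2 was called as deposited and after centring (Mogat2 log2 change 1.38, standard error 0.24, limma, adjusted p = 0.0337, and 0.0446 after centring, where the change was 1.25), and Tnfaip2 as deposited (Tnfaip2 log2 change 1.43, standard error 0.23, limma, adjusted p = 0.0205, and 0.0534 after centring, where the change was 1.31). Mtmr11, of the myotubularin family, and Scamp5, a carrier membrane protein, also rose (Mtmr11 log2 change 1.26, limma, adjusted p = 0.0205; Scamp5 log2 change 0.70, limma, adjusted p = 0.0378). Akr1c18 and Mtmr11 also had control means under 0.5 RPKM and reached the test through the injected livers.

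Mir677 was listed at 0 in the 3 controls and at 5.08, 1.42, 3.69 and 2.08 RPKM in 2-week livers 1 to 4, which equals 7, 3, 6 and 3 inferred reads on its 78 bases. So few reads carry large counting error, and long RNA libraries do not measure mature miRNAs (Mir677, limma, adjusted p = 0.00218, and 0.00463 after centring). GENCODE M21 also lists a small nucleolar RNA on 72 of these bases, and the reads cannot be assigned to 1 of the 2. The locus lies in an intron of Atp5b, a subunit of ATP synthase, which was 805, 843 and 805 RPKM in control livers 1 to 3 and 791, 807, 827 and 810.0 RPKM in 2-week livers 1 to 4. Atp5b overlapped between the groups (Atp5b log2 change -0.02, limma, adjusted p = 0.957). The mature sequences of the gene, from RefSeq (GRCm38.p6), are shown since it is the one miRNA gene called, with the seed, bases 2 to 8, in capitals; the seeds of the 2 arms differ.
miR-677-5p: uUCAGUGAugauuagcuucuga
miR-677-3p: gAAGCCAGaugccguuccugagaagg

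Enpp2, autotaxin, which makes lysophosphatidic acid, was the 1 gene that fell as deposited, at 44.3, 41.3 and 46.7 RPKM in control livers 1 to 3 and 30.9, 34.6, 27.0 and 31.0 RPKM in 2-week livers 1 to 4. All injected livers were below the controls (Enpp2 log2 change -0.51, standard error 0.09, limma, adjusted p = 0.0486, and 0.0464 after centring, where the change was -0.63). It was called in 7 of 24 fits as deposited and 4 of 16 with centring. The other 9 fell relative to the library median, and were called in 3 to 10 of 16 fits with centring. Gys2, glycogen synthase of the liver, was 149, 146 and 157 RPKM in control livers 1 to 3 and 119, 106, 102 and 125 RPKM in 2-week livers 1 to 4. The injected livers were lower without overlap (Gys2 log2 change -0.41, standard error 0.09, limma, adjusted p = 0.077, and 0.0486 after centring, where the change was -0.53). Dcn, decorin, a matrix proteoglycan of stellate cells, was 69.4, 66.0 and 75.3 RPKM in control livers 1 to 3 and 40.4, 52.4, 55.8 and 49.7 RPKM in 2-week livers 1 to 4. Liver 1 was the lowest (Dcn log2 change -0.51, standard error 0.11, limma, adjusted p = 0.0755, and 0.0464 after centring, where the change was -0.63). Ciart, a repressor in the circadian clock, was 19.9, 22.7 and 13.98 RPKM in control livers 1 to 3 and 7.58, 7.92, 8.60 and 12.3 RPKM in 2-week livers 1 to 4. Each injected liver was below each control (Ciart log2 change -1.01, standard error 0.21, limma, adjusted p = 0.0709, and 0.0264 after centring, where the change was -1.13). Smad9, which carries BMP signals, was 6.75, 6.55 and 6.79 RPKM in control livers 1 to 3 and 5.03, 2.56, 3.44 and 3.38 RPKM in 2-week livers 1 to 4. The controls were nearly equal (Smad9 log2 change -0.84, standard error 0.17, limma, adjusted p = 0.0709, and 0.0448 after centring, where the change was -0.97).

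The collectin Colec10, a lectin of innate defence, was 8.10, 7.61 and 5.96 RPKM in control livers 1 to 3 and 3.67, 3.21, 5.51 and 4.11 RPKM in 2-week livers 1 to 4. Fcna, ficolin A, another defence lectin, was 31.6, 31.7 and 29.6 RPKM in control livers 1 to 3 and 20.7, 18.4, 18.8 and 19.7 RPKM in 2-week livers 1 to 4. In both the groups did not overlap. Colec10 passed the test after centring alone (Colec10 log2 change -0.75, standard error 0.16, limma, adjusted p = 0.0759, and 0.0321 after centring, where the change was -0.87), and so did Fcna (Fcna log2 change -0.66, standard error 0.14, limma, adjusted p = 0.0709, and 0.0321 after centring, where the change was -0.78). The same held for the Cdc42 effector Cdc42ep4 (log2 change -0.45, standard error 0.09, limma, adjusted p = 0.0709, and 0.0321 after centring, where the change was -0.57), the Cullin adaptor Klhl21 (log2 change -0.61, standard error 0.12, limma, adjusted p = 0.0566, and 0.0214 after centring, where the change was -0.73) and the kinase Tesk2 (log2 change -0.70, standard error 0.15, limma, adjusted p = 0.0755, and 0.0361 after centring, where the change was -0.82). Of 11 stellate cell markers tested, 3 were higher and 2 lower in every injected liver, with a sum of 121, 116 and 126 RPKM in control livers 1 to 3 and 75.3, 97.6, 115 and 104 RPKM in 2-week livers 1 to 4. The 2 lower ones were Dcn, the most abundant of them, and Hgf, which is in the MET signalling list as well. The part of these cells in the lower genes was not tested.

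In metabolism, fatty acid oxidation and PPARα targets had a median of −0.20 over 24 genes, with 8 lower in every injected liver and none higher, beside 2.13% and 9.37% of all genes. The median was −0.26 without livers 1 and 2 and −0.28 without livers 3 and 4. Synthesis of fatty acids and sterols had a median of 0.42 over 26 genes, with 4 higher in every injected liver and a median of 0.39 without livers 1 and 2 and 0.26 without livers 3 and 4. Scd1, which makes monounsaturated fatty acids, was 761, 1274 and 1264 RPKM in control livers 1 to 3 and 491, 513, 1304 and 1004 RPKM in 2-week livers 1 to 4. Livers 1 and 2 were below the controls and livers 3 and 4 among or above them (Scd1 log2 change -0.50, limma, adjusted p = 0.787). In each of these lists 0 genes were called in limma, where 1312 of all genes had an unadjusted p under 0.05.

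The remaining hepatocyte lists follow, with the medians without livers 1 and 2 and then without livers 3 and 4 in brackets. Of 24 acute phase genes, median 0.06 (0.09, 0.11), 5 were higher in every injected liver; Fgb, a chain of fibrinogen and the most abundant, was 3413, 3313 and 3637 RPKM in control livers 1 to 3 and 3814, 3834, 2401 and 2792 RPKM in 2-week livers 1 to 4. Livers 1 and 2 were above the controls and livers 3 and 4 below them (Fgb log2 change -0.13, limma, adjusted p = 0.815). Lcn2, an iron-binding protein of the same list, was 5.19, 10.3 and 5.22 RPKM in control livers 1 to 3 and 10.9, 20.3, 32.1 and 14.5 RPKM in 2-week livers 1 to 4. Its groups did not overlap (Lcn2 log2 change 1.39, limma, adjusted p = 0.162). Of 28 glucose metabolism genes, median 0.15 (0.20, 0.03), Gys2 was the one called, after centring; Pck1, which starts glucose synthesis from oxaloacetate, was 1356, 1383 and 1344 RPKM in control livers 1 to 3 and 892, 1386, 1808 and 1325 RPKM in 2-week livers 1 to 4. Livers 1 and 4 were below and livers 2 and 3 above the controls (Pck1 log2 change -0.05, limma, adjusted p = 0.96). Of 20 bile acid genes, median −0.11 (−0.18, −0.14), 2 were lower in every injected liver, and of 22 xenobiotic genes, median 0.08 (0.30, −0.07), 5 were higher and 1 lower. The 1 called xenobiotic gene was Gstm3, which is in the pericentral list as well. Of 16 clock genes, median −0.08 (0.20, −0.16), Ciart was called after centring; Dbp, a clock output factor, was 111, 101 and 107 RPKM in control livers 1 to 3 and 131, 84.2, 31.3 and 117 RPKM in 2-week livers 1 to 4, with liver 3 far below the others (Dbp log2 change -0.41, limma, adjusted p = 0.736). Of 17 stress response genes, median 0.01 (0.00, 0.12), 1 was higher and 1 lower; Hspa5, a chaperone of the endoplasmic reticulum, was 357, 652 and 399.87 RPKM in control livers 1 to 3 and 273, 595, 446 and 359 RPKM in 2-week livers 1 to 4, and its groups overlapped (Hspa5 log2 change -0.17, limma, adjusted p = 0.818). Of 12 growth hormone genes, median 0.17 (0.35, 0.07), 2 were higher. The clock and xenobiotic medians thus change sign between the pairs. After centring the acute phase, xenobiotic and stress medians were below 0, at −0.06, −0.05 and −0.11. In the growth hormone list, the receptor gene Ghr was 181, 185 and 197 RPKM in control livers 1 to 3 and 168, 176, 201 and 207 RPKM in 2-week livers 1 to 4. The groups of Ghr overlapped (Ghr log2 change 0.00, limma, adjusted p = 0.992).

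Other cell types were followed by their markers as well. Of 10 endothelial markers, median −0.06 (0.15 without livers 1 and 2, −0.37 without livers 3 and 4), 1 was lower in every injected liver, Clec4g, a lectin of sinusoidal cells and the most abundant, at 57.9, 63.8 and 63.3 RPKM in control livers 1 to 3 and 41.9, 48.8, 53.3 and 45.9 RPKM in 2-week livers 1 to 4 (Clec4g log2 change -0.38, limma, adjusted p = 0.149). The list summed to 97.0, 104 and 106 RPKM in control livers 1 to 3 and 74.2, 77.5, 105 and 88.3 RPKM in 2-week livers 1 to 4, with livers 1 and 2 the lowest. Of 8 neutrophil markers S100a8 and S100a9 were tested and overlapped, and the sum was 8.29, 8.06 and 12.6 RPKM in control livers 1 to 3 and 3.40, 4.76, 12.2 and 7.45 RPKM in 2-week livers 1 to 4. The B and plasma cell list summed to 1.23, 2.38 and 1.56 RPKM in control livers 1 to 3 and 1.85, 4.47, 1.88 and 2.28 RPKM in 2-week livers 1 to 4, with 1 member tested, Jchain, and the dendritic list to 0.666, 0.900 and 0.728 RPKM in control livers 1 to 3 and 0.847, 1.22, 2.16 and 1.37 RPKM in 2-week livers 1 to 4, with 1 tested, Clec9a. For each of the last 2 lists the sums of the groups overlapped. Of 8 cholangiocyte markers 3 were tested, and Spp1, osteopontin, the most abundant, was 20.3, 19.2 and 20.9 RPKM in control livers 1 to 3 and 32.2, 22, 34.7 and 39.1 RPKM in 2-week livers 1 to 4. Spp1 was higher in every injected liver without a call (Spp1 log2 change 0.62, limma, adjusted p = 0.242). Of 8 erythroid markers 2 were tested and 4 were listed at 0 in all 7 livers; Hbb-bs, a β-globin, was 195, 129 and 138 RPKM in control livers 1 to 3 and 213, 395, 404 and 281 RPKM in 2-week livers 1 to 4. Each injected liver was above each control (Hbb-bs log2 change 1.04, limma, adjusted p = 0.0759). Of 9 markers of pancreas, gut and fat 1 was tested, the list summed to 0.721, 1.11 and 3.57 RPKM in control livers 1 to 3 and 2.68, 2.15, 0.971 and 0.807 RPKM in 2-week livers 1 to 4, and 2 members were at 0 in all 7 livers. The part of these cells in the results was not tested.

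**Figure D3:**
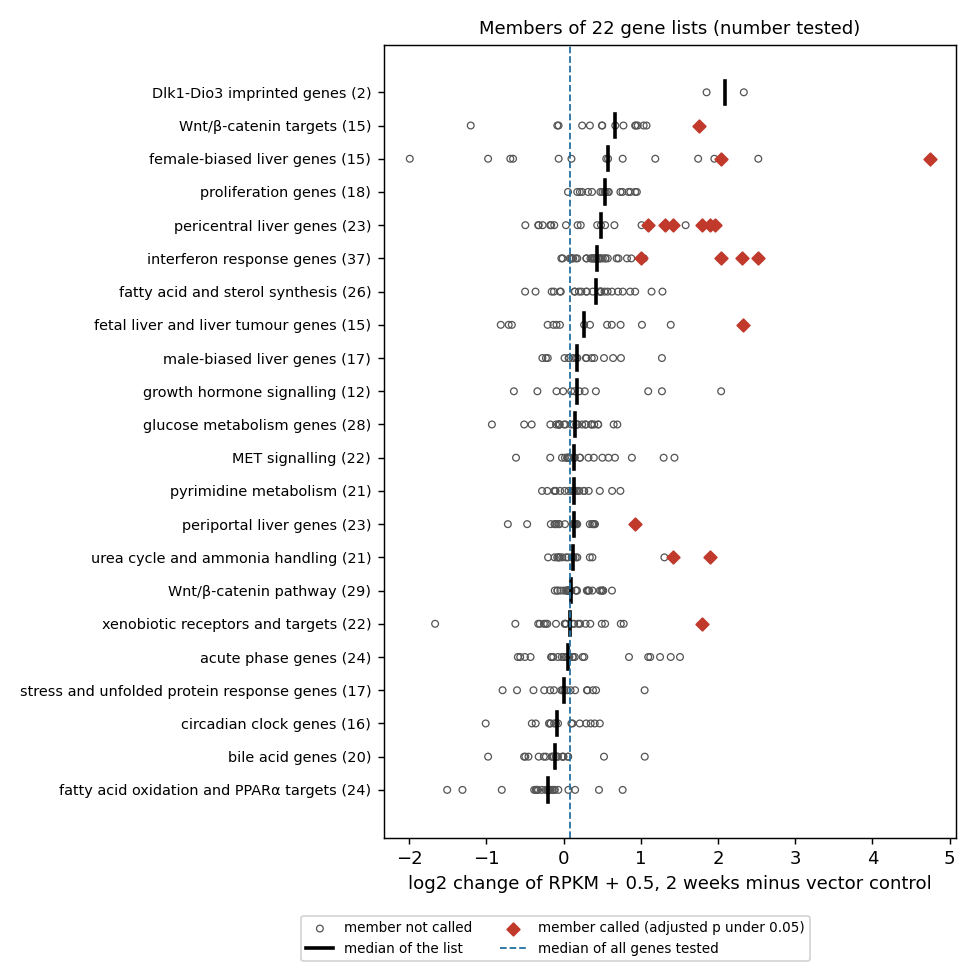
Log2 change of each tested member of 22 gene lists, with a black bar at the list's median and the number tested in brackets. Red diamonds are members called as deposited, and the dashed line is the median of all genes tested.

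Promoters of genes called higher were searched for 2 short motifs on both strands, 250 bases before to 50 after the start (RefSeq, GRCm38.p6; 26 promoters of 23 genes; the other 8 of the 31 genes were not searched). The TCF/LEF motif CTTTGAT or CTTTGAA occurred in 4 of them (15.4%) and in 8.65% of all 32851 promoters. The interferon-stimulated response element, searched as TTTC, any 2 bases and TTTC, occurred in 5 (19.2%) and in 3.44% of all. These matches are descriptions and not binding sites. Those of TCF/LEF were in Gstm3, H2-Eb1, Igtp and Mtmr11, and those of the interferon element in Cxcl10, Cdca3, Glul, Gstm6 and Igtp, so neither motif kept to 1 group of genes. The promoters of Gstm3 and Cxcl10 are given as examples, each with 1 match, in capitals; it lies on the opposite strand, so the capitals are its reverse complement.
Gstm3 (chr3:107969125-107969424, minus strand): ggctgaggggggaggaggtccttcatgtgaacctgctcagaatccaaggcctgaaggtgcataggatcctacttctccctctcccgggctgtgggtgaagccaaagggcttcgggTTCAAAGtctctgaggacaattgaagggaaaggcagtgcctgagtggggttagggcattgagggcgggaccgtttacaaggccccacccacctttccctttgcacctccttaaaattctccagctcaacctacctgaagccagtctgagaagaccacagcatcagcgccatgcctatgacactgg
Cxcl10 (chr5:92348840-92349139, minus strand): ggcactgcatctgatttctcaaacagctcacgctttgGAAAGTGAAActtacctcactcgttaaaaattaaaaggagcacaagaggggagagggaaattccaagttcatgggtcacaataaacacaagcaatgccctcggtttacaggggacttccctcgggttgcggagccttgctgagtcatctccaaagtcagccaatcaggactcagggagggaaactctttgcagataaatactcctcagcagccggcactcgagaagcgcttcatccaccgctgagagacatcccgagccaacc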

How the data were processed

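The authors deposited 1 table of RPKM (reads scaled to gene length and library size) for 11 livers; the submitters' notes name HISAT2, DESeq and mm10, and the denominator is not stated. For library preparation the labels give an rRNA depletion kit and the methods a stranded mRNA kit. Of 23420 names, the 27 that are plain numbers were dropped. The 7 libraries compared were taken by column name, and no value column was left without a sample.

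Values were put on the scale log2(RPKM + 0.5), and limma 3.58.1 (R 4.3.3, empirical Bayes, trend on intensity) was run on 11024 genes whose mean over the 7 libraries reached 0.5 RPKM. The fit held all 11 libraries in 3 groups, and the contrast was 2 weeks minus vector control. Genes with a Benjamini-Hochberg adjusted p under 0.05 are called, with the same fit after subtracting each library's median given beside it. The fit was tested on simulated data. Read totals inferred from the steps between low RPKM values were 17080000 to 22150000 in the control livers and 17680000 to 27060000 at 2 weeks, which put 3 reads on 2000 bases at 0.0554 to 0.0878 RPKM; this limit covers counting error only.

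Named genes are those called in which the 4 livers at 2 weeks lie on 1 side of the 3 controls (up to the 20 largest rises and 10 largest falls as deposited, 10 and 10 after centring), 14 genes of interest, and from each of 33 gene lists (22 pathways, 11 cell types) the members called and the 2 of highest mean RPKM; some of them are not reported here. Members and lists were chosen with earlier results of these data known, so lists are given by counts and medians with no test. Alternatives changed the pseudocount, filter, scaling, trend, weights, livers in the fit, replicate block and threshold. Sequence shared between genes was counted as 50-base words of GENCODE M21 transcripts, and promoters and miRNAs come from RefSeq (GRCm38.p6). Python 3.11.15, numpy 2.4.6, pandas 2.3.3, scipy 1.17.1 and matplotlib 3.10.9 were used.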

Additional observations from a re-analysis of the deposited data

Results flagged for a closer look

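Of 108 genes examined, 4 had 1 of the 4 livers at 2 weeks far from the other 3 by Dixon's test of the gap to the nearest liver, and chance gives about 5.4. Ctnnb1, which encodes β-catenin, was 62.8 RPKM in 2-week liver 1, below the other 3 livers. The chemokine gene Cxcl10 was 15.2 RPKM in 2-week liver 3, above the others. Jchain, a plasma cell gene, was 2.94 RPKM in 2-week liver 2, and the receptor gene Met was 15.8 RPKM in 2-week liver 4, each above the other 3 livers of the group.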

How the results depend on the processing

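The comparison counted 32 genes past an adjusted p of 0.05 in limma. The count was 24 to 35 with a pseudocount of 0.1 or 1, a mean RPKM of at least 2, centring, equal sums of RPKM, quantile normalization, no intensity trend or a 2-fold minimum, with 20 to 32 of the 32 among them. It was 28 in the fit of the 7 libraries alone, where 11 of the 32 lost the call and 21 were among the 28, and 22 in that fit with centring (20 of the 32). It was 10 with no filter (9 of the 32), 72 with array weights and 95 at an adjusted p under 0.1. Without 2-week livers 1 and 2 it was 214 (91 after centring), without livers 3 and 4 it was 19 (28 after centring), and over the fits leaving out 1 liver it was 5 to 58. The cause of these differences was not tested. The replicate numbers pair no mice by the labels, and the same-number correlations between control and 2-week livers were 0.041, 0.047 and 0.005. With the replicate number as a block the count was 23 (19 of the 32), and 10 with the block and centring (8 of the 32). The centred fits that leave livers out were chosen after seeing the data. The 32 called genes kept their direction in all 1230 values recomputed over 39 settings, and 458 of these values were no longer past the threshold. Of the 76 named genes not called, 32 had the other sign in at least 1 setting, and none was called with it in limma (1312 genes had an unadjusted p under 0.05 in the comparison as deposited). Values of the other sign among named genes follow. With each library centred the log2 change of the other sign was Csnk1a1 -0.12, Ctnnb1 -0.06, Hgfac -0.07, Iigp1 -0.04, Met -0.07 and Pcna -0.06. With quantile normalization the log2 change of the other sign was Alb 0.00, Apoa1 0.20, Csnk1a1 -0.05, Met -0.02 and Pcna -0.06. With array weights the log2 change of the other sign was Csnk1a1 0.00 and Hgfac 0.00. In the centred fit of the 7 libraries alone the log2 change of the other sign was Csnk1a1 -0.12, Ctnnb1 -0.06, Hgfac -0.07, Iigp1 -0.04, Met -0.07 and Pcna -0.06. With the replicate block the log2 change of the other sign was Csnk1a1 -0.02 and Hgfac 0.00. With the block and centring the log2 change of the other sign was Asl -0.01, Csnk1a1 -0.13, Ctnnb1 -0.06, Hgfac -0.11, Igf1 0.00, Iigp1 -0.05, Met -0.09 and Pcna -0.06. Without 2-week livers 3 and 4 the log2 change of the other sign was Apoa1 0.27, Asl -0.15, Cps1 -0.09, Csnk1a1 -0.26, Ctnnb1 -0.04, Fabp1 0.18, Fgb 0.15, Hgfac -0.05, Igf1 -0.01, Jchain 0.07 and Met -0.03. Without these 2 after centring the log2 change of the other sign was Apoa1 0.23, Asl -0.19, Cps1 -0.13, Csnk1a1 -0.30, Ctnnb1 -0.08, Fabp1 0.14, Fgb 0.11, Hgfac -0.08, Igf1 -0.04, Jchain 0.04, Met -0.07 and Pcna -0.03. Without 2-week livers 1 and 2 the log2 change of the other sign was Ccnd1 0.19, Ghr 0.12, Pck1 0.19 and Scd1 0.10. Without these 2 (livers 1 and 2) after centring the log2 change of the other sign was Bst2 -0.02, C1qa -0.19, Cela2a -0.07, Ctnnb1 -0.05, Hgfac -0.06, Hpx -0.12, Iigp1 -0.17, Met -0.07, Nkg7 -0.13, Pcna -0.09, Serpina1e -0.19 and Spint2 -0.04. With equal sums of RPKM the log2 change of the other sign was Ghr 0.01. Over the fits leaving out 1 liver, with and without centring, the ranges were Apoa1 -0.32 to 0.08, Asl -0.14 to 0.25, C1qa -0.06 to 0.34, Ccnd1 -0.31 to 0.06, Cps1 -0.08 to 0.32, Csnk1a1 -0.21 to 0.09, Ctnnb1 -0.12 to 0.15, Dbp -0.79 to 0.04, Fabp1 -0.46 to 0.01, Ghr -0.16 to 0.05, Hgfac -0.13 to 0.14, Hpx -0.04 to 0.36, Hspa5 -0.51 to 0.09, Igf1 -0.04 to 0.20, Iigp1 -0.21 to 0.20, Jchain -0.73 to 0.01, Mcm7 -0.03 to 0.29, Met -0.18 to 0.14, Pck1 -0.31 to 0.13, Pcna -0.15 to 0.15, S100a8 -0.76 to 0.08, Slc27a5 -0.27 to 0.00 and Spint2 -0.02 to 0.26. Depth limits the weakest genes, since 3 inferred reads on 2000 bases equal 0.0554 to 0.0878 RPKM.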

Other observations

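Some genes with close copies were listed at or near 0. Eno1, a glycolytic enzyme, was listed at 0 in each of the 7 libraries, and it shares 26% of its 50-base words, the most with Eno1b. The α-globin gene Hba-a1 was also listed at 0 in each library, and 72.3% of its words are shared, the most with Hba-a2. Ass1, which joins citrulline and aspartate in the urea cycle, was 0.0280, 0.0310 and 0.0360 RPKM in control livers 1 to 3 and 0.486, 0.113, 0.265 and 0.133 RPKM in 2-week livers 1 to 4. It shares 38.6% of its words with Gm5424, and its levels were too low for the test. These genes were singled out after their values were seen, and how reads with several matches were handled is not stated for the table. Rhbg and Cyp2c40, with 60.4% and 60.3% of their words shared, were above 0 in each of the 7 libraries. Whether shared sequence bears on the low values was not tested.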
